A study of Mus musculus with 4 samples.

Results

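The cells described here are Col10a1-high chondrocytes of mouse long bone with transcripts of Ptgs2, Pde11a or Loxl4. They were chosen by a rule on their own counts, in 4 droplet-based scRNA-seq libraries prepared from the metaphysis of long bones of the leg (femur and tibia). A barcode entered with at least 1000 unique molecular identifiers (UMIs, 1 per captured transcript) and 800 genes, under 15% mitochondrial UMIs and under 5% hemoglobin UMIs. It was a member with at least 20 Col10a1 UMIs per 10000, no UMI of Cdh5 or Ptprc, under 200 Bglap UMIs per 10000, and at least 3 UMIs of Ptgs2, Pde11a and Loxl4 together. The rule found 1370 members among 24739 barcodes past the filters. The 321 barcodes that met every other condition but held under 3 UMIs of those genes are called comparison cells, and both sets together (1691) Col10a1-high cells.

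Libraries came from mice at 12 weeks of age, 2 from Lats2 iECKO mutants and 2 from controls. All mice carried the floxed Lats2 allele (Lats2 lox/lox) and received tamoxifen as juveniles. Mutants also carried the Cdh5(PAC)-CreERT2 transgene, which drives the tamoxifen-dependent recombinase from the Cdh5 promoter in endothelial cells (ECs), and controls were Cre-negative littermates, which the labels name as untreated. Chondrocytes are therefore not the cells in which the gene was targeted. The cells had been depleted of lineage-positive, CD45+ and CD117+ cells with magnetic beads, and nothing states how many animals went into a library, so the spread between libraries may be partly technical.

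Growth plate chondrocytes pass from a resting state through columnar proliferation to hypertrophy. In prehypertrophic and early hypertrophic cells Indian hedgehog (Ihh) and the parathyroid hormone receptor (Pth1r) form a feedback loop that times differentiation. Hypertrophic cells secrete type X collagen (Col10a1), and the last of them release Vegfa and Mmp13 and mineralize the matrix that vessels and osteoblasts then invade. Ptgs2 encodes cyclooxygenase-2, the inducible enzyme of prostaglandin synthesis. Pde11a encodes a phosphodiesterase that breaks down cAMP and cGMP, Loxl4 a lysyl oxidase that cross-links collagen and elastin, and Pank1 a pantothenate kinase at the entry to coenzyme A synthesis.

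In the GENCODE annotation of GRCm39, the build of the deposited counts, Ptgs2 lies at chr1:149975194-149983978 on the plus strand, Pde11a at chr2:75816154-76169438 on the minus strand and Loxl4 at chr19:42580711-42601252 on the minus strand. Pank1, on the same chromosome as Loxl4, lies at chr19:34784339-34856865 on the minus strand, and Col10a1 at chr10:34265971-34273081 on the plus strand. All 5 are protein-coding genes. UMIs of exons and introns were counted together by the authors, so a value says nothing of the spliced form.

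The libraries held 69636600 to 85899079 UMIs. Between 6 and 16 filtered barcode sequences were shared by any pair of libraries, and no member barcode was. Doublets were called in 3.36% to 7.08% of members and kept. Lats2 itself was at 90.6 and 94.4 against 128 and 116 CPM in Cdh5-positive ECs of mutants and controls, and the Cre-ERT2 transcript at 53.2 and 46.6 against 0.950 and 0.791 CPM. In the members Lats2 was at 45.5 and 54.2 against 47.9 and 47.1 CPM, while Cre-ERT2 was at 0 in 3 libraries and at 0.321 CPM in mutant 2, so the transgene was counted in mutants and not in these chondrocytes beyond 1 library. CPM, the usual scaling of counts to depth, are taken over the UMIs summed over a class in a library. Where in Lats2 the counted reads lie was not tested, so its level checks the deletion only in part.

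The label of the class was checked first. Col10a1, which the rule used, was at 24197 and 24765 CPM in the mutant and 28264 and 27367 CPM in the control libraries in members. Genes of hypertrophy that the rule did not use were detected throughout. Ihh was at 818 and 782 CPM in the mutant and 838 and 916 CPM in the control libraries, and 75.4% to 91.6% of members held a UMI of it. Mmp13, the collagenase of terminal cells, was at 641 and 691 CPM in the mutant and 558 and 353 CPM in the control libraries. Spp1, which encodes osteopontin, was at 7011 and 8234 CPM in the mutant and 20820.3 and 19467 CPM in the control libraries. The members are thus hypertrophic chondrocytes by their markers. The word late is not borne out by the contrast, itself set by the rule, with the comparison cells, in which 6 of 14 tested genes of the prehypertrophic list were higher in members but 2 of 15 genes of the late hypertrophic and mineralizing list were higher and 1 was lower. The 2 were Vegfa (log2 1.46) and Mmp13 (0.96). The authors list Vegfa as a late and Ihh as an early marker of hypertrophic cells, and both were higher in members. Over all 5956 genes tested in that contrast 5.61% were higher and 7.77% lower. The class is therefore called here by its rule, Col10a1-high cells with Ptgs2, Pde11a or Loxl4, or members for short.

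Members were more numerous in the mutant libraries. There were 573 and 565 in the mutant libraries and 119 and 113 in the control libraries, 1138 against 232 in all. As a share of filtered barcodes these are 11.2% and 9.58% against 1.73% and 1.65%, means of 10.4% ± 1.12 and 1.69% ± 0.0568 (SD, n = 2 each), a log2 ratio of 2.62. Neither mutant library came near a control library. With 2 libraries against 2, an exact two-sided permutation test over libraries cannot give less than p = 0.33, which is the value here. A share of barcodes depends on what else was captured, so more of these cells and fewer of others cannot be told apart.

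**Figure D1:**
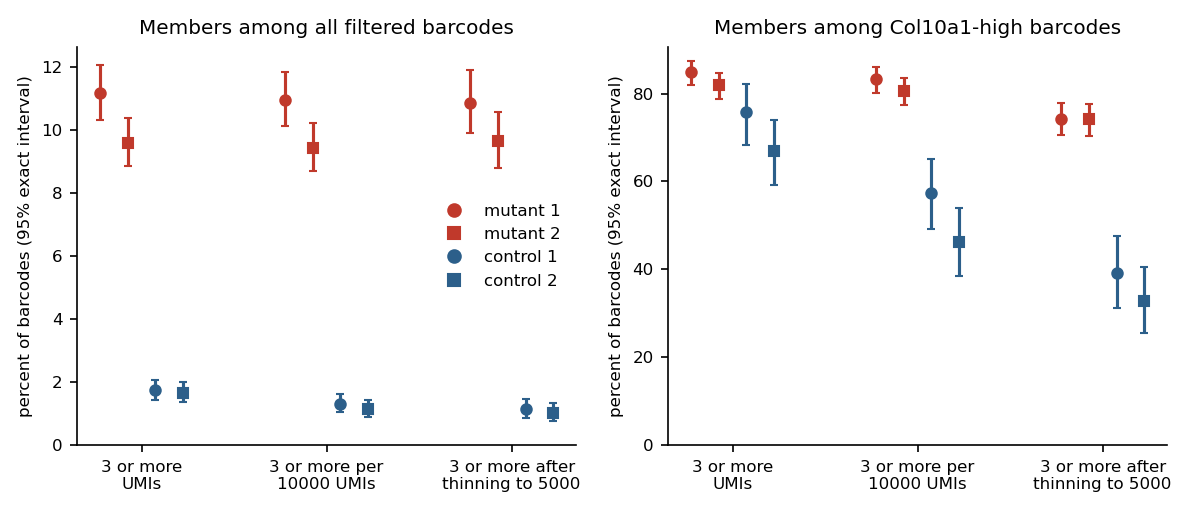
Members as a percentage of filtered barcodes (left) and of Col10a1-high cells (right) in each of 4 libraries, under the rule as given and 2 alternatives. Bars are exact 95% binomial intervals, which cover counting error only. Mutant libraries stand at 11.2% and 9.58% of filtered barcodes against 1.73% and 1.65%.

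Among Col10a1-high cells the share of members was high in every library. It was 84.9% (exact Clopper-Pearson 95% interval 82.0 to 87.5) and 81.9% (78.8 to 84.7) in mutants, and 75.8% (68.3 to 82.3) and 66.9% (59.2 to 73.9) in controls. The mutant libraries lay above both controls by 12.1 percentage points on average, and the intervals of both mutant libraries overlapped that of control 1 (exact permutation p = 0.33, the smallest possible). Members of control libraries held more UMIs per cell, with medians of 17409 and 17693 against 9687 and 9109, although medians over all filtered barcodes were 7628 and 7789 against 8211 and 7931. A fixed minimum of 3 UMIs is easier to reach in cells with more UMIs. With the minimum set per 10000 UMIs the shares were 83.3% and 80.6% against 57.3% and 46.2%. After each cell was thinned to 5000 UMIs, which left out 118 and 130 mutant and 9 and 10 control cells below that depth, they were 74.3% and 74.1% against 39.2% and 32.7%.

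The minimum of 3 UMIs splits a continuous range. Just inside it, 83 barcodes held 3 UMIs of the 3 genes, and just outside it 70 held 2, 74 held 1 and 177 held none. At the Col10a1 limit, 48 members held 20 to 25 UMIs per 10000, while 61 barcodes with enough Ptgs2, Pde11a and Loxl4 were kept out at 15 to 20, 57 of them from mutants. The 83 and the 70 barcodes on either side of the minimum had medians of 89.5 and 67.2 Col10a1 UMIs per 10000. By genotype these were 76.4 and 66.5 in mutants (56 and 54 barcodes) and 244 and 70.7 in controls (27 and 16), so the step was larger in controls.

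The members of mutants stood apart in their mitochondrial RNA. The median mitochondrial share of a member was 0.528% and 0.647% of UMIs in mutant libraries and 4.13% and 4.22% in control libraries. In the comparison cells it was 3.01% and 3.09% against 4.33% and 4.01%, and in every other class looked at it lay between 2.93% and 5.32%. Of the mutant members, 26.4% and 26.7% held 2% or more, 151 cells in each library, whereas 99.2% and 98.2% of control members did. Of the comparison cells, 69.6% and 64% held 2% or more in mutants and 92.1% and 89.3% in controls. A low median was therefore found in mutant members and in no other class. Cells under 2% were also more frequent among the comparison cells of mutants than among those of controls. The main genotype counts below are also given for the cells with 2% or more. The part of the low share in the results was not tested, nor was whether the droplets under 2% held intact cells.

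**Figure D2:**
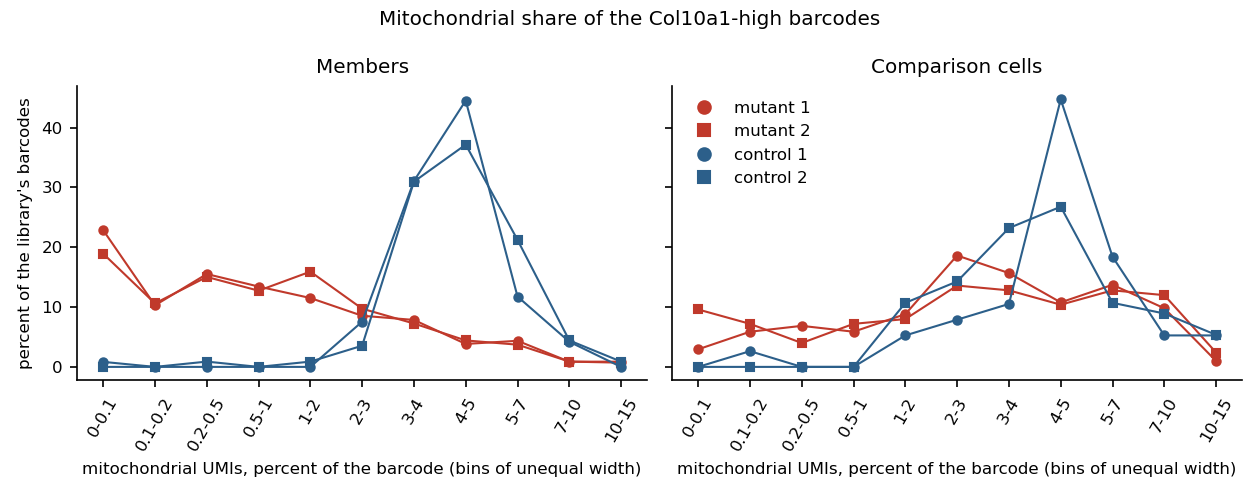
Percentage of cells in bins of mitochondrial share of UMIs, for members and comparison cells of each library. The bins are of unequal width. Most mutant members lie under 2%, with medians of 0.528% and 0.647%, and most control members lie above it, with medians of 4.13% and 4.22%.

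Restricted to cells with 2% or more, members were 3.31% of such barcodes in mutants and 1.79% in controls, a log2 ratio of 0.89. Their share among Col10a1-high cells then turned round, at 66.7% in mutants and 73.0% in controls, a difference of -6.34 points (exact permutation p = 0.33). Members with 2% or more held medians of 14035 and 13091 UMIs in mutants and 17467 and 17713 in controls. A share at equal depth was not computed for these cells. With the fixed minimum of 3 UMIs, the excess in number kept its direction and the excess in share did not.

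The 3 genes that chose the members differed in level between genotypes. Within members, where the rule used these values, Ptgs2 was at 509.9 and 512 CPM in the mutant and 62.8 and 129 CPM in the control libraries, Pde11a at 488 and 517 CPM in the mutant and 341 and 275 CPM in the control libraries, and Loxl4 at 566 and 585 CPM in the mutant and 184 and 204 CPM in the control libraries. In the comparison cells, which the rule holds under 3 UMIs, no value of the 3 genes passed 28.9 CPM. Ptgs2 was detected in 64.6% and 63.7% of mutant and 17.6% and 19.5% of control members. At an equal depth of 5000 UMIs these shares were 54.5% and 55.8% against 10.3% and 14.4%. Members had been chosen on these genes at their full, unequal depth, so thinning does not free such shares from the rule. Pde11a and Loxl4 were detected in 83.2% to 90.8% of members in every library. At equal depth Loxl4 was at 79.0% and 81.5% against 50% and 52.3%, and Pde11a at 75.7% and 79.2% against 68.1% and 64.0%.

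As a description of the cells chosen, at their unequal depths, all 3 genes were present in 578 of 1138 mutant members (50.8%) and in 27 of 232 control members (11.6%). Pde11a and Loxl4 without Ptgs2 made up 28.7% of mutant and 63.8% of control members. Ptgs2 with neither of the others was rare, at 21 of 1370 members. Control members were in the main Pde11a- and Loxl4-positive and Ptgs2-negative at their depth.

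**Figure D3:**
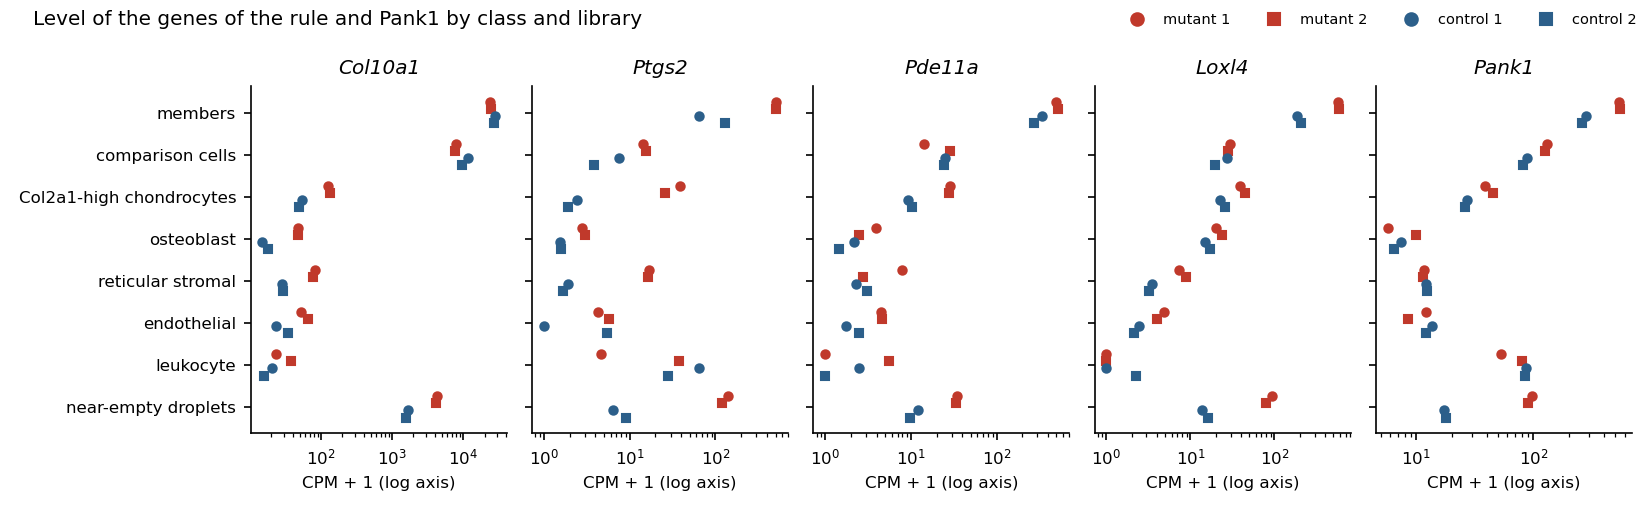
Levels of Col10a1, Ptgs2, Pde11a, Loxl4 and Pank1 in CPM plus 1 (log axis) in 8 classes of droplets, 1 point per library. Ptgs2 is at 509.9 and 512 CPM in mutant and 62.8 and 129 CPM in control members. The members and comparison cells were split on 3 of these genes.

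In the other cell types apart from chondrocytes and leukocytes, few cells held the 3 genes. At least 3 UMIs were found in 0.134% to 1.03% of ECs, 0.0992% to 0.955% of reticular stromal cells and 0.735% to 2.94% of osteoblasts. Chondrocytes high in Col2a1 and low in Col10a1 came next, at 12.3% and 13.9% in mutants and 5.81% and 5.97% in controls. Leukocytes, of which only 12 to 58 per library were present, held them in 0% to 8.62%, with Ptgs2 at 3.68 and 37.0 against 63.5 and 27.2 CPM. In near-empty droplets Ptgs2 was at 137 and 118 against 5.33 and 8.06 CPM, so free RNA of this gene was also higher in mutant libraries. Scaled by hemoglobin summed over the members of a library, free RNA made up at most 2.74% of their UMIs on average. That is worth at most 0.031 UMIs of the 3 genes per 10000 on average, and single cells may hold more.

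To compare the genes without the minimum of 3 UMIs, counts were summed over all Col10a1-high cells of a library and tested with edgeR's quasi-likelihood test, adjusted after Benjamini and Hochberg over 6840 genes, of which 25.4% were higher and 24.8% lower in mutants at an adjusted p of 0.05. Together the 3 genes were at 1329 and 1349 against 493 and 464 CPM, a log2 ratio of 1.48 (exact permutation p = 0.33). Ptgs2 was at 433 and 427 CPM in mutants and 52.8 and 96.6 CPM in controls (log2 fold change 2.56 ± 0.19 SE, adjusted p = 1.08e-06). Loxl4 was at 483 and 489 CPM in mutants and 156 and 157 CPM in controls (log2 fold change 1.68 ± 0.08 SE, adjusted p = 1.02e-07). Pde11a was at 414 and 433 CPM in mutants and 285 and 211 CPM in controls (log2 fold change 0.82 ± 0.12 SE, adjusted p = 0.000258), and Pank1, which no rule used, at 471 and 477 CPM in mutants and 244 and 213 CPM in controls (log2 fold change 1.10 ± 0.09 SE, adjusted p = 2.99e-06). For none of these genes did the groups overlap, and the share of all genes without overlap is not given.

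With 2% or more mitochondrial UMIs only Loxl4 kept its call among these 4 genes, at a log2 fold change of 1.09 (edgeR adjusted p = 6.96e-05). Ptgs2 was then at 0.67 (edgeR adjusted p = 0.0543), Pde11a at 0.02 (0.917) and Pank1 at 0.10 (0.501). The summed level of the 3 genes was 697 against 482 CPM there. Within mutant members Ptgs2 was at 731 and 711 CPM in cells under 2% and at 167 and 167 CPM in cells with 2% or more, set against 62.9 and 129 CPM in control members with 2% or more. Among members, which were chosen in part on Ptgs2, its level was thus highest in the mutant cells low in mitochondrial RNA. Those cells held medians of 8734.5 and 8493.5 UMIs against 14035 and 13091 at 2% or more. The minimum of 3 UMIs asks for a higher rate in such cells, and its part was not tested.

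Members were next set against comparison cells within each library. Among 5956 tested genes outside the rule, 334 (5.61%) were higher and 463 (7.77%) lower in members (edgeR with library as a block, adjusted p at most 0.05), and 127 and 219 of these by 2-fold or more. Without mutant 1 or mutant 2 the 797 became 341 and 394. Values are given in the order mutant 1, mutant 2, control 1, control 2. The cells were split on UMIs of 3 genes, and members of control libraries were deeper than their comparison cells (17409 and 17693 against 10394 and 10635.5 median UMIs), so the contrast is a description of that split.

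Among the genes named for the size of their rise in members, Dkk1, a secreted inhibitor of Wnt signaling, came first, at 178, 216, 5.20 and 1.48 CPM in the members and 10.7, 10.1, 2.19 and 0 CPM in the comparison cells (log2 fold change 4.16 ± 0.26 SE, adjusted p = 8.51e-05). Among Col10a1-high cells it was high in the members of mutants, and osteoblasts held it at 27.0 and 61.2 CPM in the mutant and 27.5 and 28.0 CPM in the control libraries. Ptger3, a prostaglandin E2 receptor, was at 44.0, 47.9, 0.472 and 1.48 CPM in the members and 8.26, 7.75, 0 and 1.44 CPM in the comparison cells (log2 2.44). Apln, the ligand of the apelin receptor, was higher by 2.64 on the log2 scale, with 761 UMIs summed over the members of mutants and 6 over those of controls. Ffar4, a fatty acid receptor, and Kcnk2, a potassium channel, were higher by 2.16 and 2.25.

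Srgap3, a GTPase-activating protein of the Slit-Robo pathway, was higher in members of all 4 libraries, at 67.4, 74.1, 62.4 and 55.2 CPM in the members and 14.9, 15.5, 6.57 and 7.22 CPM in the comparison cells (log2 2.47, edgeR adjusted p = 0.000225). The others picked by size were Arsi, an arylsulfatase (3.82), Kirrel3, an adhesion molecule (2.80), Tmem119, a membrane protein of bone-forming cells (2.58), Sfmbt2, a Polycomb protein (2.47), Dusp5, an ERK phosphatase (2.45), Irx5, a homeobox factor (2.25), and Ptp4a3, a tyrosine phosphatase (2.12). Within members, mutant over control, the same genes in that order were at log2 0.67, 4.83, 6.06, 1.29, 3.17, 0.43 and 2.18. Kirrel3 and Tmem119 were thus high mainly in the members of mutants. Pank1 was at 534, 550.2, 277 and 259 CPM in the members and 129.8, 124, 87.5 and 80.8 CPM in the comparison cells (log2 1.93, edgeR adjusted p = 0.000106) and so followed the split in all 4 libraries. It had been set as a marker of these cells with earlier results of these data known, so its level is a description.

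**Figure D4:**
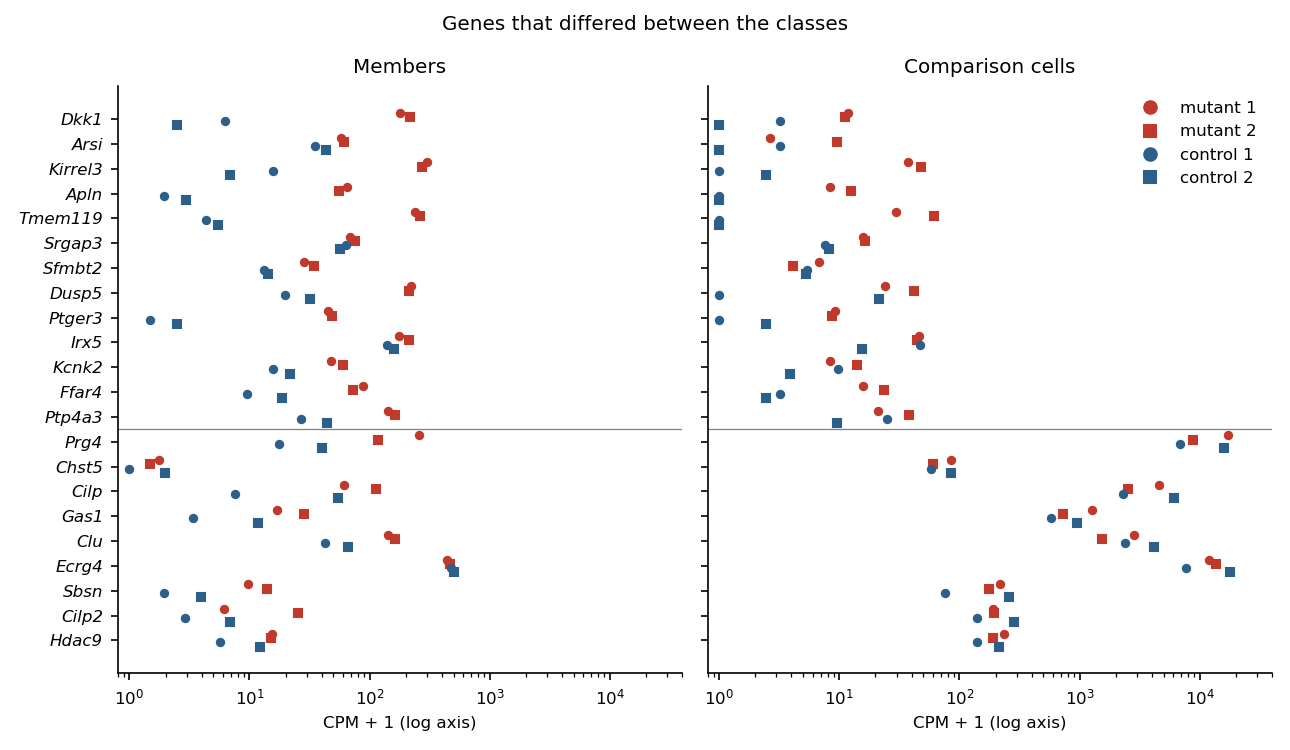
Levels in CPM plus 1 (log axis) of the genes named for the largest rise and the largest drop in members, 1 point per library for members and for comparison cells. The genes lower in members, led by Prg4, are high in the comparison cells. Moving the same way in all 4 libraries was a condition for being shown. Summed over control members, Ptger3 had only 4 UMIs and Apln only 6.

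Of the genes named for the size of their drop in members, Prg4, which encodes the joint lubricant lubricin, was at 255, 118, 16.5 and 38.9 CPM in the members and 17137, 8857, 6837 and 16059 CPM in the comparison cells (log2 -7.29). Cilp and Cilp2, matrix proteins of cartilage, were lower, at log2 differences of -6.30 and -4.50, and Ecrg4, a secreted peptide, was at 436, 464, 473 and 502 CPM in the members and 11968, 13633, 7761 and 17789.6 CPM in the comparison cells (log2 -4.68). Also lower were Chst5, a sulfotransferase (-6.80), Gas1, a Hedgehog co-receptor (-6.03), Clu, clusterin (-4.79), Sbsn, suprabasin (-4.66), and Hdac9, a histone deacetylase (-4.07). Prg4 marked a mixed comparison set: 25.5%, 19.2%, 28.9% and 50% of comparison cells held 10 or more Prg4 UMIs per 10000 against at most 0.885% of members. Without those cells 379 genes in place of 797 differed, and only 238 of them were among the 797.

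The prostaglandin list held the largest share of higher genes of any list with 5 or more tested genes: without Ptgs2, which the rule used, 5 of 7 tested were higher in members and none was lower (median log2 1.65, against 0.01 over all genes tested). Members were chosen in part on Ptgs2, a gene of this list, so the count only describes the split. Ptges, the terminal prostaglandin E2 synthase, was at 95.6, 92.6, 2.36 and 1.97 CPM in the members and 14.1, 33.3, 0 and 2.89 CPM in the comparison cells (log2 1.95), so that its rise was in the mutant libraries, and Pla2g4a, the phospholipase that frees arachidonic acid, was at 83.9, 119, 44.4 and 43.4 CPM in the members and 33.1, 25.6, 10.9 and 5.77 CPM in the comparison cells (log2 1.95). Hpgd, which breaks prostaglandins down, was also higher (1.65). Ptges and Ptger3, both among the 5, had 1206 and 588 UMIs summed over mutant and 9 and 4 over control members. Their calls between the classes therefore rest on the mutant libraries.

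Of 14 tested prehypertrophic genes 6 were higher and none lower (median 0.56). Ihh was at 818, 782, 838 and 916 CPM in the members and 232, 273, 269 and 128 CPM in the comparison cells (log2 1.96, edgeR adjusted p = 0.00103), Bmp6 was higher by 1.46 and Runx2, the transcription factor of hypertrophy and bone, by 1.28. Of 15 late hypertrophic and mineralizing genes 2 were higher and 1 lower (median 0.28). Vegfa was at 677, 639.9, 186 and 167 CPM in the members and 179, 205, 96.3 and 80.8 CPM in the comparison cells (log2 1.46) and Mmp13 was higher by 0.96 (edgeR adjusted p = 0.0435). Spp1, Ibsp and Alpl, genes of mineralization, did not pass, with log2 differences of 0.61, 0.59 and 0.29.

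Counts for relatives of the rule's own genes were small and are read against 5.61% higher and 7.77% lower over all genes. Of 9 other tested phosphodiesterases none was higher and 3 were lower, among them Pde10a (-2.50) and Pde7b (-2.46). Of 12 lysyl oxidases and collagen hydroxylases 2 were lower and none higher, and of 15 genes of cyclic nucleotide (cAMP and cGMP) production and response 5 were lower and none higher. Of 21 resting and columnar cartilage genes 3 were lower, while Acan (0.41), Col2a1 (0.15) and Sox9 (-0.09) did not pass. Of 24 signal genes 6 were higher and 4 lower, with Wif1, a Wnt inhibitor, at -3.40 and Gli2, a Hedgehog effector, at -2.79. Immediate early genes counted 6 higher and 1 lower of 21, and unfolded protein response genes 0 higher and 3 lower of 19.

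Genotype was then compared within the members, with the summed counts of 2 mutant and 2 control libraries. Of 7125 tested genes 1865 (26.2%) were higher and 1823 (25.6%) lower in mutants at an adjusted p of 0.05 (edgeR), 533 and 438 of them by 2-fold or more. About equal numbers moved each way, and the median over all genes was -0.01. Since 26.2% and 25.6% of all genes were called, counts of list members are read against those shares. With 2% or more mitochondrial UMIs, 1702 genes in place of 3688 were called.

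Genes of hypoxia and glycolysis were higher in mutant members. Of 25 tested genes 23 were higher in mutant members and 1 lower, with a median log2 fold change of 2.09. Ndrg1, a hypoxia-induced growth regulator, was at 108 and 112 CPM in the mutant libraries and 5.20 and 3.45 CPM in the control libraries (log2 fold change 4.70 ± 0.19 SE, adjusted p = 1.39e-11). Ankrd37, a target of hypoxia-inducible factor (HIF), was at 68.6 and 69.1 against 1.42 and 5.42 CPM and the vasodilator peptide gene Adm at 81.1 and 94.0 against 4.25 and 4.93 CPM (log2 4.39 and 4.30). For each of these genes the groups did not overlap, and the share of all genes without overlap is not given. Bnip3, a mitophagy receptor, was at 631 and 606 against 45.4 and 47.8 CPM (3.78). Egln3, the HIF prolyl hydroxylase that HIF itself induces, had 686 UMIs summed over the mutant and 3 over the control libraries, a ratio of rates of 74.0 (exact 95% interval 25.2 to 359.8, counting error only). The list also held Pgk1, a glycolytic enzyme, at 954 and 971 against 104 and 94.6 CPM (3.33), the glucose transporter gene Slc2a1 (2.91) and Vegfa (1.95). Car12, a carbonic anhydrase, was the exception at 24.0 and 18.0 against 126 and 106 CPM (-2.41).

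The list kept its direction in cells with 2% or more mitochondrial UMIs, with 21 higher and 1 lower of 24 tested and a median of 1.45. Its summed level in mutant members was 13285 and 12922 CPM under 2% and 7398 and 7437 CPM at 2% or more, against 2682 and 2672 CPM in control members at 2% or more. In the comparison cells, where 2.75% of 6226 tested genes were higher and 2.01% lower in mutants, 16 of 24 tested genes of the list were higher and 1 lower (median 1.06). There 296 genes were called in all, and 583 without control 2. The summed level was thus higher in mutant than in control members at 2% or more, and most of the list was higher in both classes of Col10a1-high cells. Only 1 and 2 control members lay under 2%, so the genotypes were not compared there. Bnip3 was also measured in other classes, in which no test was run: it was at 217 and 199 against 59.6 and 56.1 CPM in Col2a1-high chondrocytes, 46.7 and 50.8 against 12.3 and 13.9 CPM in ECs, 14.7 and 9.24 against 16.6 and 9.91 CPM in leukocytes and 207 and 220.3 against 24.9 and 24.3 CPM in near-empty droplets. The groups overlapped in leukocytes and in none of the other classes given.

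**Figure D5:**
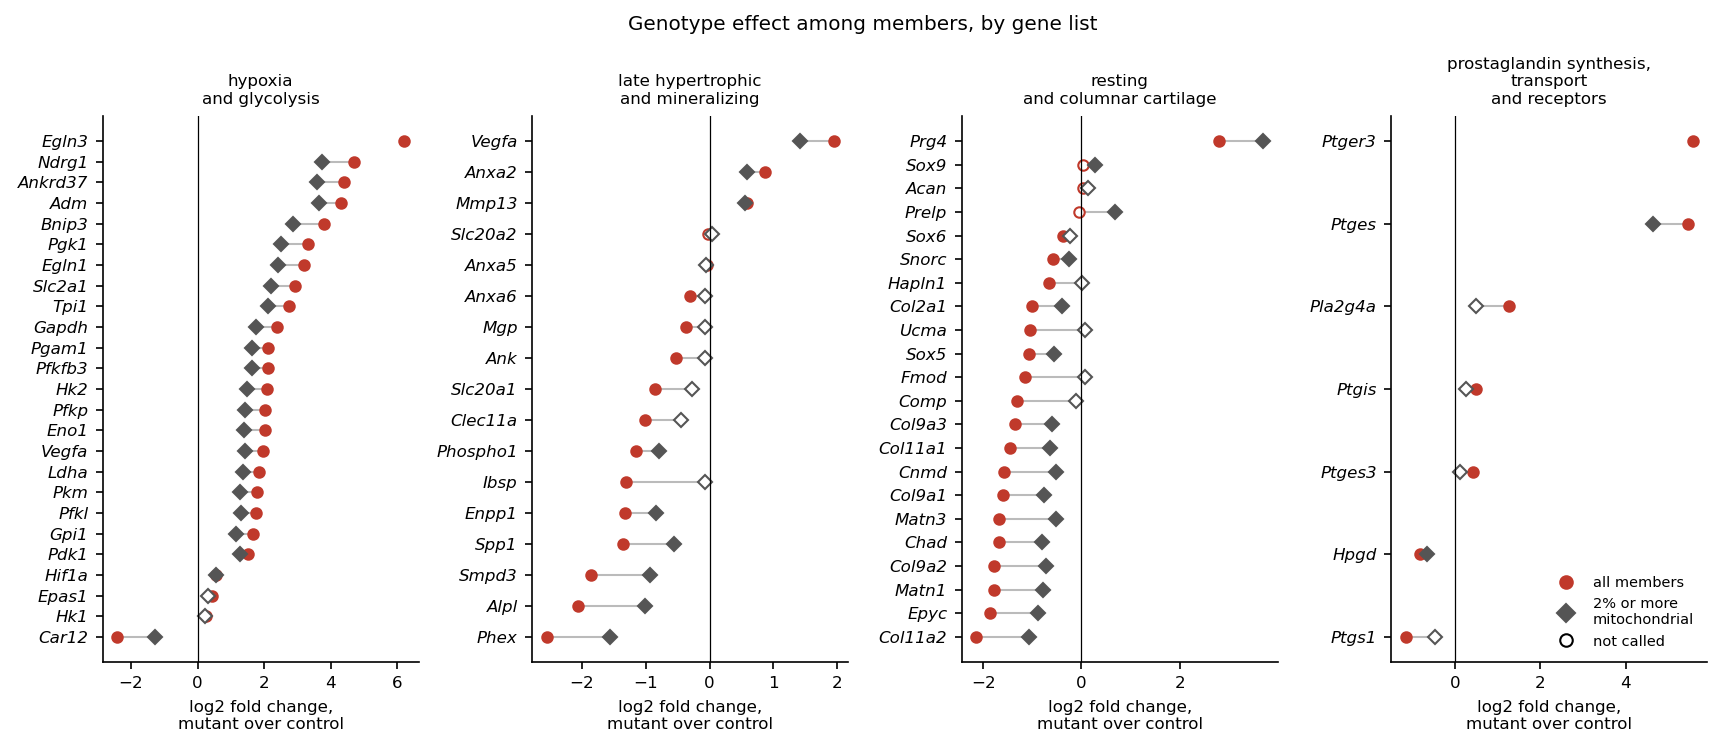
Log2 fold change of mutant over control in members for the tested genes of 4 lists. Red circles are all members, grey diamonds are members with 2% or more mitochondrial UMIs, and open symbols did not pass an adjusted p of 0.05. Egln3 and Ptger3 were not tested with 2% or more, and Ptgs2, which the rule used, is not shown. Hypoxia genes lie to the right under both selections (medians 2.09 and 1.45), while late hypertrophic genes move toward 0 (medians -0.85 and -0.08).

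Promoters are shown for 3 of these genes and for Ptgs2 because the genes rose together and their start sites can be searched for the letters HIF binds. The 250 bases before the RefSeq start site (GRCm38.p6) are printed 5′ to 3′, with matches to any of 5 motifs in capitals: the HIF core ACGTG, the CRE core TGACGT, the RUNX core TGTGGT, the TATA box TATAAA and the AP-1 site TGANTCA, each on both strands.
Ptgs2 (chr1:150099781-150100030, plus strand): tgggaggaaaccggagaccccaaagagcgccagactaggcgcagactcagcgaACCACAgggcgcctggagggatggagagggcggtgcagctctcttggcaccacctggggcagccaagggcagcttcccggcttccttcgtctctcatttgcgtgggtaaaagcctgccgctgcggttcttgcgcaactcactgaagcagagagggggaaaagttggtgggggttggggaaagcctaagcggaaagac
Egln3 (chr12:54203875-54204124, minus strand): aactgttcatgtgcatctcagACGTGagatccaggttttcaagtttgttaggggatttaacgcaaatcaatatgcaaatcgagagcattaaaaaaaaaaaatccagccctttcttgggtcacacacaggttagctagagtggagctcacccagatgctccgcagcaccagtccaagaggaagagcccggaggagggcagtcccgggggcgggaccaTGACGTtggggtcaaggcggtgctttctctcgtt
Ankrd37 (chr8:45999851-46000100, minus strand): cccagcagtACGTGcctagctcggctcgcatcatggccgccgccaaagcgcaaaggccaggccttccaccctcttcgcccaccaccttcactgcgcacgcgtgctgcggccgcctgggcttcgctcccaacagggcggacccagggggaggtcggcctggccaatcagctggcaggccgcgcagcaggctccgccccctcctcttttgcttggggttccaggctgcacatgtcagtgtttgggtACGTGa
Bnip3 (chr7:138909507-138909756, minus strand): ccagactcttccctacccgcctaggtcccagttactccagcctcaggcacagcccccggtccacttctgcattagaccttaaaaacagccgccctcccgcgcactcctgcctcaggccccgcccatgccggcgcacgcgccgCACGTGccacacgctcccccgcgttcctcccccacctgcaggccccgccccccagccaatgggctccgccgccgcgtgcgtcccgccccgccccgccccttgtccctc
In Ankrd37 the capitals are HIF cores that begin at positions -241 and -6 from the start site. In Bnip3 they are 1 palindrome, read on both strands from -108 and -107. In Egln3 they are a HIF core at -229 and a CRE core at -34. In Ptgs2 they are a RUNX core on the reverse strand at -197, and a CRE core at 13 with overlapping HIF cores at 17 and 18 lies past the bases printed. The windows of 300 bases around the starts of Pde11a and Loxl4 held none of the 5.

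Of 36 promoters of the hypoxia list (26 of 29 genes matched), 52.8% held a HIF core, 19 promoters of 17 genes. Over all 32851 promoters of 300 bases the share was 19.6%. The list was made of known hypoxia and glycolysis genes, so its share describes the list and not these cells. Of the genes named for their size here, those higher in mutant members held a HIF core in 3 of 9 promoters (33.3%). Those higher in members than in comparison cells held it in 2 of 12 (16.7%). The CRE core was in 16.7% of the list's promoters and 7.51% of all, the RUNX core in 16.7% and 16.8%, the TATA box in 2.78% and 13.6%, and the AP-1 site in 5.56% and 7.81%. A match is a run of letters and not a measured binding site, and base composition was not taken into account.

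Prostaglandin genes moved both ways. Of 7 tested, 5 were higher and 2 lower in mutant members. Ptges was at 95.6 and 92.6 CPM in the mutant libraries and 2.36 and 1.97 CPM in the control libraries (log2 fold change 5.47 ± 0.22 SE, adjusted p = 1.36e-11). Ptger3 had 588 UMIs summed over the mutant and 4 over the control libraries, a ratio of rates of 47.6 (exact 95% interval 18.5 to 175, counting error only). Pla2g4a was higher by 1.25 and Ptgis, prostacyclin synthase, by 0.48. Hpgd fell by 0.83 and Ptgs1, the constitutive cyclooxygenase, by 1.17 on the log2 scale. With 2% or more mitochondrial UMIs, 1 of 6 tested genes was higher and 1 lower, so most of these calls were lost there. Calls over all genes also fell, from 3688 to 1702, and whether the loss in this list was larger was not tested. Ptges kept its call at 4.65 (edgeR adjusted p = 1.09e-06).

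Genes of mineralization were lower in mutant members. In the late hypertrophic list 12 of 17 tested genes were lower and 3 higher (median -0.85). Spp1 was at 7011 and 8234 CPM in the mutant libraries and 20820.3 and 19467 CPM in the control libraries (log2 -1.35), Ibsp, bone sialoprotein, at 5695 and 6567 against 17481 and 14011 CPM (-1.31), Alpl, the tissue-nonspecific alkaline phosphatase, at 615 and 597 against 2538 and 2726 CPM (-2.07), and Phex, a phosphate-regulating peptidase, at 18.8 and 31.3 against 145 and 159 CPM (-2.55). The exceptions included Vegfa, at 677 and 639.9 CPM in the mutant libraries and 186 and 167 CPM in the control libraries (log2 fold change 1.95 ± 0.08 SE, adjusted p = 2.77e-11), and Mmp13, at 641 and 691 against 558 and 353 CPM (0.60). The mitochondrial share moved with these genes. Ibsp was at 545 and 1276 CPM in mutant members under 2% and at 13666 and 15739 CPM at 2% or more, set against 17494 and 14093 CPM in control members at 2% or more. Alpl was at 167 and 219.8 CPM under 2% and 1309 and 1251 CPM at 2% or more. In cells with 2% or more, 3 genes of the list were higher and 6 lower (median -0.08). Phex (-1.57), Alpl (-1.01) and Spp1 (-0.56) remained lower there, and Ibsp (-0.07, edgeR adjusted p = 0.624) did not pass.

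Cartilage matrix genes were lower with and without the cells under that limit. In the resting and columnar list 18 of 22 tested genes were lower and 1 higher in mutant members (median -1.23), and with 2% or more 13 were lower and 3 higher, with a smaller median of -0.45. Col2a1, type II collagen, was at 15515 and 15771 CPM in the mutant libraries and 31739 and 33789.8 CPM in the control libraries (-1.02). Col11a2, a chain of type XI collagen, Epyc, a small proteoglycan, and Matn3, a matrilin, were lower by 2.15, 1.87 and 1.68 on the log2 scale, whereas Sox9 (0.03) and Acan (0.03) did not pass. Of 14 prehypertrophic genes 10 were lower and 1 higher, and 9 and 1 with 2% or more, with Pth1r at -1.37 and Panx3, a channel protein, at -1.30. Ihh did not pass, at 818 and 782 against 838 and 916 CPM (log2 -0.08, edgeR adjusted p = 0.345), though in cells with 2% or more it was lower by 0.27 (edgeR adjusted p = 0.0425).

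Among enzymes of collagen modification 7 of 12 were higher and 4 lower, and 6 and 1 with 2% or more mitochondrial UMIs. P4ha2, a collagen prolyl hydroxylase, was at 982 and 926 CPM in the mutant libraries and 116 and 115 CPM in the control libraries (log2 3.10). Stress genes were mostly higher: 18 of 21 immediate early genes were higher and 3 lower, with Socs3 at 2.28 and Ier3 at 2.22. The 3 lower were the heat-shock genes Hspa1b (-1.67), Dnajb1 (-0.60) and Hspa1a (-0.59). In cells with 2% or more mitochondrial UMIs 14 of the 21 were higher, at a median of 0.49 in place of 1.09. The same 3 were lower there, at -1.63, -0.70 and -0.92. Of 19 unfolded protein and integrated stress response genes 13 were higher and 1 lower, with Asns, asparagine synthetase, at 3.13 and the transcription factor gene Atf3 at 2.69. In those cells 7 of 18 were higher and none lower, at a median of 0.31 in place of 0.72. The immediate early genes respond to dissociation as well as to signals. Of 13 p53 and cell death genes 7 were higher and none lower, including Cdkn1a, which encodes p21 (1.55). At 2% or more 6 were higher and Gadd45a, a growth arrest gene, was lower (-0.62).

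The largest single changes, by the rule on size, were in genes near 0 in controls. Nrn1, a neuritogenesis protein, had 769 UMIs summed over the mutant and 1 over the control libraries, a ratio of rates of 249 (exact 95% interval 44.5 to 9844, counting error only). Arhgap28, a GTPase-activating protein, had 346 UMIs summed over the mutant and 3 over the control libraries, a ratio of rates of 37.3 (exact 95% interval 12.7 to 182, counting error only). Tmem119 was at 239 and 263 against 3.31 and 4.44 CPM (6.06), Dkk1 at 178 and 216 against 5.20 and 1.48 CPM (5.90), and Apln at 63.5 and 55.1 against 0.945 and 1.97 CPM (5.38). These genes were near absent from control members and present in both mutant libraries. In cells with 2% or more mitochondrial UMIs the log2 fold changes were 5.16 for Tmem119, 4.63 for Dkk1 and 4.23 for Apln, and Nrn1, Arhgap28, Npr3 and Lamb1 were not tested there. Npr3, the natriuretic peptide clearance receptor, was at 38.3 and 43.1 against 1.42 and 0.493 CPM and Lamb1, a laminin chain, at 47.4 and 40.8 against 1.42 and 0.986 CPM.

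H2-Ab1, a chain of MHC class II, was at 300.3 and 283 CPM in the mutant libraries and 7.56 and 0.493 CPM in the control libraries (6.19). Its partners H2-Aa, H2-Eb1 and Cd74 were at most at 0.964 CPM in members of any library, and in near-empty droplets H2-Ab1 was at 74.4 and 65.3 against 4.57 and 6.35 CPM. Rps3a3 was at 1083 and 1099 against 6.61 and 9.36 CPM (7.14). It shares reads with its near-identical copy Rps3a1, so that value is uncertain, and it was higher in the mutant libraries in every class looked at (212 and 246 against 4.02 and 8.81 CPM in ECs).

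The drops were smaller in size. Nrgn, a calmodulin-binding protein, was at 49.5 and 42.0 CPM in the mutant libraries and 320.3 and 342 CPM in the control libraries (-2.80), and Chrdl1, a secreted BMP antagonist, at 40.8 and 31.8 against 248 and 214 CPM (-2.62). The others were Slc1a3, a glutamate transporter (-3.16), Cnr1, a cannabinoid receptor (-3.04), Chn2, a Rac GTPase-activating protein (-2.89), Ctsw, a cathepsin (-2.82), Mypn, myopalladin (-2.81), Parm1 (-2.74) and Mmp16, a membrane-bound metalloproteinase (-2.68). At 2% or more mitochondrial UMIs these drops were smaller, at -1.86 for Slc1a3, -2.02 for Cnr1, -1.99 for Chn2, -1.51 for Nrgn and -1.51 for Chrdl1. The 12 drops chosen by size also took in 3 transcripts without a gene name. Mitochondrial messenger RNAs are part of the mitochondrial share, so their drop is not a further result. Of these, 12 of 13 were lower (median -1.23), and 6 of 13 were among cells with 2% or more.

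Whether the difference between genotypes was the same in members and in comparison cells was tested as an interaction. Of 5960 tested genes 209 (3.51%) had a higher and 176 (2.95%) a lower effect in members. These 385 became 117 in cells with 2% or more mitochondrial UMIs and 142 by DESeq2. For hypoxia 13 of 24 tested genes had a higher effect in members and none a lower one. Ndufa4l2, a HIF-induced mitochondrial protein, was at means of 636 CPM in mutant and 31.2 CPM in control members and at 1358 and 532 CPM in comparison cells, an interaction of 2.96. For mitochondrial messenger RNAs, which are part of the mitochondrial share, 10 of 13 had a lower effect in members. For the late hypertrophic list 5 of 15 had a lower effect and none had a higher one. In cells with 2% or more the effect was higher for 8 of 25 hypoxia genes and lower for none of 13 mitochondrial messenger RNAs, and 1 of 17 late hypertrophic genes differed in each direction. Without mutant 1, mutant 2 or control 1 the interaction called 113, 90 and 640 genes in place of 385.

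Markers of other cell types were low in members and are given by their summed level. The 10 endothelial markers came to 41.9 and 50.8 CPM in mutants and 46.8 and 47.3 CPM in controls, and leukocyte markers to 26.6 and 25.7 against 44.9 and 70.0 CPM. Fibroblast markers were at 122 and 162 against 24.6 and 84.8 CPM, and osteoclast markers at 232 and 197 against 143 and 187 CPM. Erythroid markers were at 529.6 and 606 against 199.6 and 342 CPM, with 4 of 4 tested genes higher in mutants and 2 with 2% or more mitochondrial UMIs, and reticular stromal markers at 197 and 116 against 373 and 429 CPM, with 2 of 2 lower, and 1 higher and none lower with 2% or more. Smooth muscle and pericyte markers were at 245 and 282 against 266 and 369 CPM. No marker of these lists was at 0 in all members, and their part in the genotype differences was not tested.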

How the data were processed

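Gene expression was measured in single cells of 4 libraries (10x Genomics Chromium 3′ V3). The authors trimmed reads with cutadapt 3.5 and counted them with STARsolo 2.7.10a on GRCm39 with GENCODE M26, extended by Cre and reporter sequences. What they deposited are expected counts for every barcode, unfiltered, over exons and introns, with reads of several genes shared out, so that 9.71% to 10.6% of entries are not whole and near-identical genes are uncertain.

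Barcodes were filtered and classified as the report states, with groups from the sample labels. Counts were summed per library and class, rounded, and tested with edgeR 4.0.16 (quasi-likelihood, limma 3.58.1, R 4.3.3) with DESeq2 1.42.0 as an alternative, on genes that passed filterByExpr and were seen in 20% or more of the cells of 1 group. Genes of the rule were not tested, except Ptgs2, Pde11a and Loxl4 over all Col10a1-high cells. Doublets were scored with scanpy 1.11.5, and exact intervals and permutation tests came from scipy 1.17.1. The fits were tested on simulated data, where changes of 2-fold were recovered less often in comparison cells and for the interaction than in the other fits, and false calls passed the nominal rate in all fits but those of genotype in members and the interaction. Members, lists and tests were chosen with earlier results of these data known.

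Genes named are those with the largest change among called genes of at least 20 CPM in the higher group: 14 higher and 10 lower between classes, moving the same way in 4 libraries, and 12 in each direction between genotypes, with both mutant libraries outside the controls. To these were added the 8 smallest adjusted p of the interaction, and per list the 4 members with the largest change and its defining genes. Of the genes so chosen between classes, 2 are not reported here. The other genes with values in the text (Lats2, Cre-ERT2, H2-Aa, H2-Eb1, Cd74, Ptgis and the like) were chosen after their values were seen. Promoters were taken from RefSeq on GRCm38.p6. Alternatives left out each library, changed the scaling, filters, thresholds, depth and doublets, or kept cells with 2% or more mitochondrial UMIs, which was chosen after seeing the data.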

Additional observations from a re-analysis of the deposited data

Results flagged for a closer look

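For 8 genes the effect of genotype differed between members and comparison cells, by an interaction term with edgeR's quasi-likelihood test, and these had the smallest adjusted p-values. The effect was higher in members for Prg4, Creb5, Ndufa4l2 and Rcan1, and lower for Igfbp7, Pdgfrb, Mgp and Sparc. Values are means of 2 libraries.

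Creb5, a cAMP-responsive transcription factor, was at 83.6 and 5.86 CPM in mutant and control members and 227 and 269 CPM in mutant and control comparison cells, an interaction of 4.09 on the log2 scale. Rcan1, a calcineurin inhibitor, was at 60.9 and 11.9 CPM in mutant and control members and 96.5 and 139 CPM in mutant and control comparison cells (2.88). Neither gene passed the test of genotype in the comparison cells. Ndufa4l2 was at 636 and 31.2 CPM in mutant and control members and 1358 and 532 CPM in mutant and control comparison cells (2.96). Prg4 was at 186 and 27.7 CPM in mutant and control members and 12997 and 11448 CPM in mutant and control comparison cells (2.53), and 19.2% to 50% of the comparison cells held 10 or more Prg4 UMIs per 10000. Of the mutant members 3 and 5 did. In mutant Col10a1-high cells Prg4 was at 177 CPM with above 5 to 10 UMIs of the 3 genes of the rule per 10000, and at 31.8 CPM with above 20.

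Mgp, matrix Gla protein, was at 15780.1 and 21045 CPM in mutant and control members and 14491 and 4831 CPM in mutant and control comparison cells (-2.03). Sparc, osteonectin, was at 9592 and 27791 CPM in mutant and control members and 18090.4 and 23926 CPM in mutant and control comparison cells (-1.14), and in mutant members it was at 2977 and 3610.3 CPM under 2% mitochondrial UMIs and at 20673 and 19058 CPM at 2% or more. In cells with 2% or more the interaction of Sparc was -0.30 (edgeR adjusted p = 0.437) and did not pass. Igfbp7, an insulin-like growth factor binding protein, was at 221 and 418 CPM in mutant and control members and 3891 and 885 CPM in mutant and control comparison cells (-2.99). Pdgfrb, the receptor of mural and stromal cells, was at 14.6 and 19.1 CPM in mutant and control members and 180.0 and 16.7 CPM in mutant and control comparison cells (-3.81), while the smooth muscle and pericyte markers summed to 846 and 1456 CPM in mutant and 385 and 215 CPM in control comparison cells.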

How the results depend on the processing

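The share of members among Col10a1-high cells was 30.2 points higher in mutants with the rule per 10000 UMIs, 21.4 with at least 5 UMIs and 38.3 after thinning, but -6.34 in cells with 2% or more mitochondrial UMIs, a reversal at unequal depth, and 7.59 to 16.5 with each library left out in turn (7.59 without control 2). The log2 ratio of their number was 3.06, 2.87 and 3.26 under the first 3, 2.50 with Col10a1 at 40 per 10000, 0.892 with 2% or more, and 2.50 to 2.72 with each library left out. The log2 ratio of the summed level was 0.532 with 2% or more, and 1.44 to 1.53 with each library left out.

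Between members and comparison cells 797 genes differed, against 2077 without the filter on low genes and 717 with the rule per 10000 UMIs. There were 477 in barcodes of 5000 to 20000 UMIs, 328 with Col10a1 at 100 per 10000 and 379 without Prg4-high cells. With each library left out there were 341 to 832 (341 without mutant 1, 394 without mutant 2). Of the 797, 676 were called again without the filter and 446 with the rule per 10000. In barcodes of 5000 to 20000 UMIs 419 were, with Col10a1 at 100 per 10000 262, and without Prg4-high cells 238. Between genotypes in members 3688 genes were called, against 2399 by DESeq2 and 1702 with 2% or more, and 2994 to 3213 with each library left out. Over all Col10a1-high cells 3435 became 2272 by DESeq2 and 1591 with 2% or more, and 2564 to 3298 with each library left out. In comparison cells 296 became 166 by DESeq2, 932 without the filter, 879 with the rule per 10000, and 210 to 583 with each library left out (583 without control 2). For the interaction 385 became 142 by DESeq2, 734 without the filter, 889 with the rule per 10000, 117 with 2% or more, and 90 to 640 with each library left out (113 without mutant 1, 90 without mutant 2, 640 without control 1). The cause was not tested.

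With the replicate numbers as a replicate block 3726 genes were called in members, 3407 over all Col10a1-high cells and 159 in comparison cells. Deviations of same-numbered libraries correlated at -0.0388, -0.0156 and -0.015, and nothing in the labels says that a number marks a shared litter or day.

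The genes chosen by size, some of the others named and 4 lists (hypoxia, resting and columnar, late hypertrophic, prehypertrophic) were refitted too. A gene was not counted under an alternative that did not test it. With 2% or more mitochondrial UMIs these included Nrn1, Arhgap28, Egln3 and Ptger3 between genotypes, and Dkk1, Kirrel3 and Apln between classes. Of the values counted, 942 stayed on their side of the threshold or, for list counts, close to the main count. Another 19 lost it, 1 passed it, 1 count moved and no called gene changed direction. Outside these, Ebf1 and Col1a2, chosen after their values were seen, turned from lower to higher in mutant members with 2% or more mitochondrial UMIs (-0.46 to 0.68 and -0.30 to 0.69 on the log2 scale), and there Igfbp7 was at 0.13 in place of -0.87 and Ecrg4 at 0.83 in place of -0.07. The comparison cells of controls were few (38 and 56).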

Other observations

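Between genotypes in members, where 26.2% of genes were higher and 25.6% lower, osteoblast and osteocyte genes counted 0 higher and 9 lower of 10 tested, and matrix proteases and inhibitors 2 and 8 of 12. Signals of the Hedgehog, PTHrP, FGF, BMP, Wnt and TGF-beta pathways counted 5 higher and 15 lower of 24. Targets of YAP1 and TAZ, the coactivators that LATS kinases restrain, counted 6 and 3 of 14. Phosphodiesterases counted 2 and 4 of 7, cyclic nucleotide production and response 5 and 6 of 17, NF-kB and cytokine genes 4 and 3 of 10, autophagy, lysosome and vesicle genes 4 and 4 of 13, coenzyme A synthesis 1 and 1 of 5, and cell cycle genes 2 and 1 of 3. With 2% or more mitochondrial UMIs, where 921 genes were higher and 781 lower of 7262, the counts were 1 and 7 for osteoblast and osteocyte genes, 2 and 4 for proteases, 5 and 10 for signals, 3 and 1 for YAP1 and TAZ targets, 3 and 2 of 8 for phosphodiesterases, 3 and 4 for cyclic nucleotides, 2 and 2 for NF-kB, 2 and 2 for autophagy, 0 and 1 for coenzyme A and 1 and 1 for the cell cycle.

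Between members and comparison cells, where 5.61% of genes were higher and 7.77% lower, osteoblast and osteocyte genes counted 2 higher and 2 lower of 8 tested, matrix proteases and inhibitors 1 and 3 of 10, hypoxia and glycolysis 2 and 0 of 24, p53 and cell death 3 and 2 of 12, NF-kB and cytokine 1 and 1 of 9, YAP1 and TAZ targets 2 and 3 of 14, autophagy, lysosome and vesicle 1 and 1 of 12, cell cycle 0 and 1 of 4, coenzyme A synthesis 1 and 0 of 3, and mitochondrial messenger RNAs 0 and 1 of 13.

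Malat1, a nuclear long noncoding RNA chosen after its values were seen, was at 33597 and 35837 CPM in mutant members under 2% mitochondrial UMIs, at 25252 and 23388 CPM in those with 2% or more, and at 17511 and 16503 CPM in control members with 2% or more. Kirrel3 was at 410.0 and 363 CPM under 2% and at 125 and 116 CPM at 2% or more in mutants, and Nrgn at 3.75 and 3.80 CPM and 120.3 and 108 CPM. Col10a1 was at 21812 and 23708 CPM under 2% and at 27888 and 26596 CPM at 2% or more.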
